A study of Mus musculus with 8 samples.

Results

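The genes described here encode the machinery by which a muscle fibre takes up glucose, stores it as glycogen, breaks glycogen down and carries the sugar through glycolysis to lactate or into the mitochondrion. A list of 41 such genes was matched by symbol to the 55487 gene identifiers measured, using a GRCm38 gene annotation, and all 41 were found. Their RNA was measured in 8 immobilized mice given K14Q MOTS-c, as one arm of a study that set this peptide against its wild-type form in muscle wasting and glucose uptake. MOTS-c is a short peptide encoded in mitochondrial DNA, and K14Q is a variant form of it in which the lysine at residue 14 is replaced by glutamine. All 8 were male C57BL/6J mice aged 10 weeks whose hind legs were both held in casts for 8 days, and each received 15 mg/kg/day of the variant peptide intraperitoneally in 2 injections per day. The sample labels give the tissue as vastus lateralis muscle, whereas the design text and the methods give gastrocnemius, so the muscle is called hindlimb muscle below. Libraries of uncast mice, of cast mice without peptide and of cast mice given the wild-type peptide were not analysed here, so the values describe 1 condition and its spread between mice, and no effect of the cast or of the peptide can be read from them.

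Values are normalized counts, that is, reads per gene after division by a factor for the size of each library. The libraries held 23985356 to 33012497 counts with size factors from 0.906 to 1.20, and no library repeated another, since a chi-square comparison of the 28 pairs of libraries gave at least 15.0 per degree of freedom. All 8 skeletal muscle markers (Acta1, Ckm, Mylpf, Tnnt3, Myh1, Myh2, Myh4 and Myh7) reached 10 counts in each mouse. Liver markers summed to at most 6.65 normalized counts per mouse, with Apoa1 at 0 in all mice. Blood markers, all 5 of 5 detected, summed to between 7060 and 28320, with the highest sums in mouse 5 and mouse 3 (24713). Nerve and Schwann cell markers, 6 of 6 detected, summed to 2466 to 3373 in 7 mice and to 5541 in mouse 7. Tendon markers, 5 of 5 detected, ran from 898 in mouse 8 to 6122 in mouse 1, macrophage markers (6 of 6) from 2037 to 5201, fibroblast markers (6 of 6) from 10128 to 18640 and satellite cell markers (3 of 3) from 153 to 246. The part of these in the differences between mice was not tested. In a bulk sample such as these, fewer cells of a type and less RNA per cell cannot be told apart.

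In skeletal muscle, insulin and contraction move the glucose transporter GLUT4 to the surface membrane, and hexokinase then traps the sugar by phosphorylation. The glucose 6-phosphate formed is either built into glycogen or sent through glycolysis, whose committed step is phosphofructokinase. Fast fibres of type IIB, which carry the myosin heavy chain encoded by Myh4, are known for a high content of glycolytic enzymes and glycogen phosphorylase. Many enzymes of the pathway exist as a muscle form and as a form used in other tissues, each from a gene of its own.

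The sequences just upstream of an annotated start of 5 of these genes are shown: Ldha and Slc16a3 for their matches to the motifs below, Pgam1 and Pgam2 as a pair for the same reaction, and Phkg1 because a result below turns on it. RefSeq promoter windows (GRCm38.p6, 250 bases before and 50 bases after each annotated start) were matched by symbol for 40 of the 41 genes, which had 59 windows. Slc2a4 was not matched. The core of the sites known for the hypoxia-inducible and E-box factors that drive glycolytic genes, ACGTG on either strand, was found in 40.7% of these 59 windows and in 19.6% of all 32851 windows. The GC box GGGCGG on either strand was found in 55.9% of the windows and in 35.7% of all. The E-box CANNTG, which includes some of the ACGTG matches, was about as frequent in these windows (72.9%) as in all (72.3%), and TATAAA was found in 3.39% against 13.6%. By gene, 21 of the 40 had ACGTG in a window, 28 had GGGCGG, 31 had CANNTG and 2 had TATAAA. The shares above count windows, so genes with several windows count more than once. All windows were not matched to these for GC content. The match is a description of letters, and binding was not measured.

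The 250 bases upstream of the RefSeq start are given 5′ to 3′ on the strand of the gene, with the ACGTG and GGGCGG matches of either strand in capitals. They lie at chr7:46845554-46845803 on the plus strand for Ldha, at chr11:120948817-120949066 on the plus strand for Slc16a3, at chr19:41911621-41911870 on the plus strand for Pgam1, at chr11:5803797-5804046 on the minus strand for Pgam2 and at chr5:129879089-129879338 on the minus strand for Phkg1. The gene spans of the GENCODE annotation begin further upstream for Ldha, Slc16a3 and Phkg1, by 4329, 587 and 19461 bases from the RefSeq start, so these windows lie inside the spans and other starts of the genes are not shown.
Ldha: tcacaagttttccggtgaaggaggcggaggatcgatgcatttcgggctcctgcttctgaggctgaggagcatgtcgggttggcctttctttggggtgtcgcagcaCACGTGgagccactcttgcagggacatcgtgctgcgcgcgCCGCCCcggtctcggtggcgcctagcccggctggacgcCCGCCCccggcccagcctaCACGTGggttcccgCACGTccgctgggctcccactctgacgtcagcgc
Slc16a3: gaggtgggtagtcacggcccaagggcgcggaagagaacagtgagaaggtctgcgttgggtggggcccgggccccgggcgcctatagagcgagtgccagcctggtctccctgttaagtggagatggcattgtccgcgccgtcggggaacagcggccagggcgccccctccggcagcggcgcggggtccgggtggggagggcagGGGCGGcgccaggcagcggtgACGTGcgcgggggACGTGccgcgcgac
Pgam1: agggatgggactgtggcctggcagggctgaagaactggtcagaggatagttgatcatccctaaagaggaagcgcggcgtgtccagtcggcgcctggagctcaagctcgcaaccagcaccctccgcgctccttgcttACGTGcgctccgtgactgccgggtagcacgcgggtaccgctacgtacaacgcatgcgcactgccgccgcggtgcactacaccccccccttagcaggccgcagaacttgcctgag
Pgam2: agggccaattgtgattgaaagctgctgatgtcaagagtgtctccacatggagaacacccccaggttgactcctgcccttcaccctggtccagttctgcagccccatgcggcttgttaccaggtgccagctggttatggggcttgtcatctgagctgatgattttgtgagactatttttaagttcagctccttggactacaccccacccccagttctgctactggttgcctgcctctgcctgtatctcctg
Phkg1: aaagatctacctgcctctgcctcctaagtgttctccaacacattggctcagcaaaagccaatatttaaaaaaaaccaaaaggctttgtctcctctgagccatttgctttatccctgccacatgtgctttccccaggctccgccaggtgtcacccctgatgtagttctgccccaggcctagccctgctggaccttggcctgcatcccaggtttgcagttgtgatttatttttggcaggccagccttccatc
The Ldha stretch held 3 ACGTG sites and 2 GC boxes, and that of Slc16a3, the lactate exporter, held 2 and 1. Pgam1, the phosphoglycerate mutase of most tissues, held 1 ACGTG site, while its muscle counterpart Pgam2 and the phosphorylase kinase subunit gene Phkg1 held neither motif in these 250 bases. The GC content of the stretch was 73.6% for Slc16a3, 67.2% for Ldha, 64.0% for Pgam1, 53.2% for Pgam2 and 50.8% for Phkg1.

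The 41 genes took 2.50% ± 0.18 (SD, n = 8 mice) of all counts, with a range of 2.30% to 2.76%. The 12 genes from aldolase to lactate dehydrogenase took the largest part among the 7 role groups, with a median of 1.22% of counts, followed by the 5 glycogen breakdown genes with 0.543%. The mean of all 41 reached 10 normalized counts, and Aldoc alone fell below 10 counts in some library, with 8.49 to 20.5 normalized counts. Per kb of exonic length, Aldoa stood highest at 71789 ± 14684 normalized counts (SD), followed by Pygm (38461 ± 8090.1), Pfkm (17085 ± 2383), Eno3 (15976 ± 4277), Pgam2 (10825 ± 2349) and Gapdh (10565 ± 1647). Aldoa was above Pygm by more than the SD of either, whereas Pfkm and Eno3 did not differ beyond their spread, nor did Pgam2 and Gapdh. This order depends on the length: with that of the APPRIS principal transcript (chosen after seeing the data) Gapdh came next after Aldoa and Pygm, at 30750.2 ± 4795 per kb against 10825 ± 2349 for Pgam2, and Pkm rose from 8230.1 to 16924. At the other end stood Pfkl (22.0 ± 2.77), Pfkp (10.2 ± 1.72) and Aldoc (4.10 ± 1.21).

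**Figure D1:**
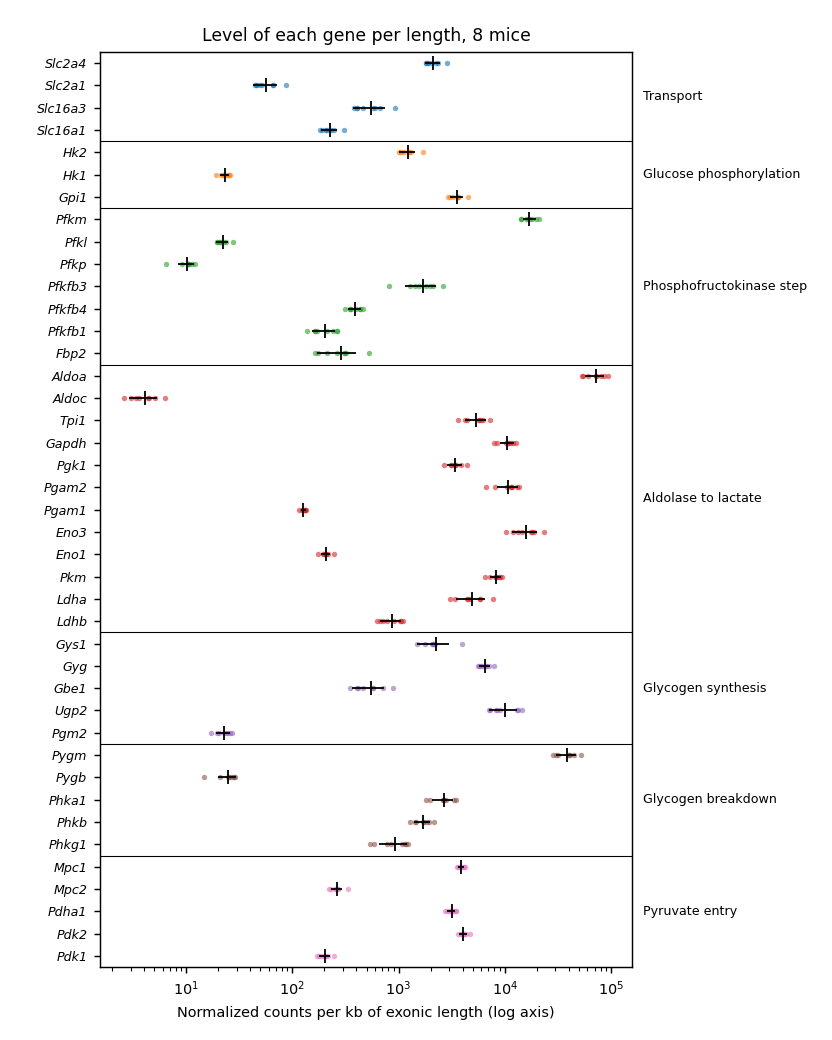
Level of each of the 41 genes in each of 8 mice, as normalized counts per kb of exonic length on a log axis, grouped by role; points are mice, vertical ticks the means and horizontal bars ± SD. The muscle forms (Slc2a4, Hk2, Pfkm, Aldoa, Pgam2, Eno3, Pygm) lie far to the right of the other forms, from Aldoa at 71789 to Aldoc at 4.10.

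The spread between mice was unlike from gene to gene. The coefficient of variation (CV) ran from 4.85% for Pgam1 to 40.5% for Fbp2, with a median of 17.0% over the 41 genes and 16.5% over the 16513 genes whose mean reached 10 normalized counts (the genes tested below). Counting error alone would give 54.9% or more of the variance observed in Pgam1, Aldoc, Pgm2 and Hk1. Most of these genes are abundant, and abundant genes vary less: among genes whose mean reached 1000 normalized counts, the median CV was 17.5% for the 30 that belong to the list and 12.6% for all 3501. The 5 genes of mitochondrial pyruvate entry were the steadiest group, with CVs of 6.11% to 12.5%. The biological coefficient of variation that edgeR estimates from the counts had a median of 17.0% for the 41 genes and 16.2% for all genes tested.

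Among the transporters, Slc2a4, the gene of GLUT4 at chr11:69942539-69948188, had 7774, 6531, 8191, 6347, 9945, 7207, 6600 and 6311 normalized counts in mice 1 to 8, a mean of 7363 ± 1251 (SD, n = 8). Mouse 5 stood highest, and the lowest 4 mice lay between 6311 and 6600. Slc2a1, the gene of the transporter GLUT1 that serves basal uptake in many cells, had 162, 161, 228, 302, 233, 156, 182 and 174, with mouse 4 highest. Slc16a3 encodes MCT4, which carries lactate out of glycolytic fibres, and its values were 3173, 2164, 2179, 2041, 4948, 2477, 3581 and 3036. Mouse 5 was highest again, at 2.42 times the lowest, mouse 4. Slc16a1 encodes MCT1, the lactate importer of oxidative cells, and ranged from 812 to 1342, also highest in mouse 5.

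Hexokinase 2, encoded by Hk2, is the insulin-regulated hexokinase of muscle. Hk2 had 7439, 7473, 6046, 6136, 10061, 6454, 7886 and 6739.9 normalized counts in mice 1 to 8, with mouse 5 apart from the other 7. Hk1, the hexokinase of brain and red cells, had 162 to 219, with a CV of 9.68%. Gpi1, which turns glucose 6-phosphate into fructose 6-phosphate, ranged from 18847 to 28784.

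At the phosphofructokinase step, Pfkm, the muscle subunit, had 70001, 52679.6, 47534, 47893, 65535, 57916, 59626 and 55321 normalized counts. The liver and platelet subunits were far lower, Pfkl at 129 to 186 and Pfkp at 86.5 to 163. Exons of Pfkp share 748 bases with Pitrm1 on the other strand, which had 1285 normalized counts, so reads of the pair cannot be told apart if strand was not used. The bifunctional enzymes that set fructose 2,6-bisphosphate, the activator of phosphofructokinase, were led by Pfkfb3, with 13672, 15791, 11677, 14949, 9648, 10810.2, 6080.1 and 19690. Pfkfb3 was among the least even of the genes, with mouse 8 at 3.24 times mouse 7 and a CV of 32.7%. Pfkfb1, whose product is the liver and muscle form, had 961, 657, 692, 551, 656, 856, 1064 and 1057, and Pfkfb4 ranged from 1538 to 2251. Fbp2, the muscle fructose bisphosphatase that runs the step backwards, had 771, 385, 312, 241, 462, 254, 467 and 453, with mouse 1 above all others.

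The steps from aldolase to lactate were led by Aldoa. Aldoa, aldolase A, had 250288, 210673, 155712, 158879, 210918, 178044, 233896 and 273416 normalized counts in mice 1 to 8, with mice 3 and 4 lowest and mouse 8 highest. Tpi1, triose phosphate isomerase, had 19900.4, 12053, 11542, 10033, 15628, 15898, 16424 and 17166, and Gapdh, often used as a reference gene, had 52549, 44574, 34899.9, 32966, 45169.6, 42292, 49817 and 47055. In both, mouse 4 was lowest and mouse 1 highest. Gapdh thus varied 1.59-fold between mice of the same group, with a CV of 15.6%.

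Pgk1, phosphoglycerate kinase, ranged from 5977 to 9952. Pgam2 had 9659, 9698, 6773, 5622, 8896, 9768, 11331 and 10999 normalized counts, whereas Pgam1 had 247, 246, 259, 265, 255, 261, 258 and 227 and had the lowest CV of the list, 4.85%, where counting error alone would give about 6.36%. The pseudogene Pgam1-ps2 had 69.8 normalized counts, equal to 27.7% of Pgam1, and how reads that fit both were assigned is not given in the sources used here. Eno3, the muscle enolase, had 40666, 23327, 20645, 17853, 31615, 25073, 30632 and 32449, a 2.28-fold range. Eno1, the enolase of other tissues, ranged from 941 to 1318, and its retrogene copy Eno1b had 59.1% of its level. Pkm, pyruvate kinase, ranged from 32830.4 to 46898, and overlaps Gm49759, which had 7.79% of its level, by 767 exonic bases on the same strand.

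Ldha encodes the lactate dehydrogenase subunit that favours lactate formation. Ldha at chr7:46841475-46855627 had 25759.9, 14651, 11321, 10144, 14872, 15717, 19429 and 19388 normalized counts in mice 1 to 8, a mean of 16410.2 ± 5021. Mouse 1 was highest at 2.54 times mouse 4, and mice 3 and 4 were the lowest pair, as they were for Aldoa, Tpi1, Gapdh, Pgam2 and Eno3. Ldhb, the heart-type subunit, ranged from 988 to 1736. Aldoc, the brain aldolase, was near the lower limit of detection.

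Of the glycogen synthesis genes, Gys1, muscle glycogen synthase, had 9977, 8444, 10649, 10357, 18895, 10029, 10146 and 7214 normalized counts. Mouse 5 stood alone, and the other 7 did not exceed 10649. Ugp2 makes UDP-glucose, the donor for glycogen synthase, and had 25113, 27700, 40584, 39696, 44800, 25978, 21673 and 22052. Its mice fell into 3 high values (mice 3, 4 and 5) and 5 low ones, with no value between 27700 and 39696. Gbe1, the branching enzyme, had 1871, 2195, 3067, 3793, 4789, 2476, 3079 and 2210.2, with mice 5 and 4 highest and mouse 7 just above mouse 3. Gyg, glycogenin, the protein primer of the granule, ranged from 13137 to 18562. Pgm2 (ENSMUSG00000029171) was low, at 44.9 to 70.6, while Pgm1, for which RefSeq lists Pgm2 as an older symbol, had 15627 ± 4760 (SD, n = 8).

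Of the glycogen breakdown genes, Pygm, muscle glycogen phosphorylase, had 168391, 129611, 97103, 90705, 102664, 125514, 143409 and 132749.7 normalized counts, the second most abundant of the list per kb. Mice 4 and 3 were lowest and mouse 1 highest. Phosphorylase kinase, which switches phosphorylase on, is built of regulatory alpha and beta subunits, a catalytic gamma subunit and calmodulin. Phka1, the muscle alpha subunit gene, had 21033, 16391, 11384, 12354, 16262, 16748, 21632 and 17339.7, and Phkb, the beta subunit gene, had 15832, 13732, 9560.2, 10645, 10822, 12687, 14334 and 12771. Phkg1, the muscle gamma subunit gene at chr5:129863421-129898549, had 7613, 7420, 3835, 3471, 5564, 5021, 7071 and 8008. In all of these, mice 3 and 4 were the lowest pair. Phkg1 shares 630 exonic bases with Sumf2 on the other strand, which had 2.81% of its level. Pygb, the brain phosphorylase, ranged from 71.2 to 140.1.

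The genes of pyruvate entry varied least. Mpc1 and Mpc2 encode the subunits of the mitochondrial pyruvate carrier and ranged from 7346 to 8715 and from 1623 to 2429 normalized counts. The pseudogene Mpc1-ps had 14.8% of the level of Mpc1. Pdha1, a subunit of pyruvate dehydrogenase, ranged from 10201 to 12930.4. Pdk2 and Pdk1, kinases that switch pyruvate dehydrogenase off, ranged from 11349 to 15006 and from 1332 to 1913. A kinase gene outside the list, Pdk4, known to rise with fasting, was far above both, at 82171, 62168, 89255, 96382, 89275, 71765, 73112 and 87974, or 23216 ± 3271 per kb against 4081 ± 347 for Pdk2.

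Within each mouse, 16 pairs of genes were compared per kb of exonic length. In each pair the same gene was higher in 8 of 8 mice, with an exact sign-flip permutation p of 0.0078 (two-sided, adjusted p also 0.0078 over the 16 pairs), the smallest this design can give. Slc2a4 exceeded Slc2a1 by 37.7-fold, a log2 ratio of 5.24 ± 0.37 (SD, n = 8). Hk2 exceeded Hk1 by 52.3-fold, Pgam2 exceeded Pgam1 by 83.1-fold and Eno3 exceeded Eno1 by 75.5-fold. The widest gaps were those of Aldoa over Aldoc (17859-fold), Pfkm over Pfkp (1693-fold), Pygm over Pygb (1557-fold) and Pfkm over Pfkl (774-fold). Since Pfkp may hold reads of Pitrm1, its own gap could be wider. Conversely, Eno1b had 59.1% of the level of Eno1, and Pgam1-ps2 had 27.7% of that of Pgam1. If reads of Eno1 or Pgam1 were assigned to these copies, the gaps of Eno3 and Pgam2 could be narrower.

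Other pairs were closer. Ldha exceeded Ldhb by 5.66-fold and Slc16a3 exceeded Slc16a1 by 2.40-fold, and in both pairs the log2 ratio was smallest in mouse 4, at 2.11 and 0.65. Gys1 exceeded Gbe1 by 4.11-fold, and Pdk2 exceeded Pdk1 by 20.3-fold. Pfkfb3 was higher than Pfkfb1 by 8.16-fold and than Pfkfb4 by 4.17-fold, both with an SD of the log2 ratio above 0.5, the widest of the 16 pairs. Mouse 7, the mouse lowest in Pfkfb3, had the smallest gap in both.

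The size of a gap depends on the length assigned to a gene. With the length of the APPRIS principal transcript, Mpc1 exceeded Mpc2 by 4.51-fold in place of 14.9-fold, Hk2 exceeded Hk1 by 25.5-fold, Eno3 exceeded Eno1 by 31.7-fold, Pfkm exceeded Pfkp by 608-fold, and Pfkl exceeded Pfkp by 1.21-fold in place of 2.19-fold. The mean ratio of all 16 pairs had the same direction with both lengths, but Pfkl was then above Pfkp in 7 of 8 mice, with mouse 5 at a log2 ratio of -0.063 (exact sign-flip permutation p = 0.039, adjusted p also 0.039).

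**Figure D2:**
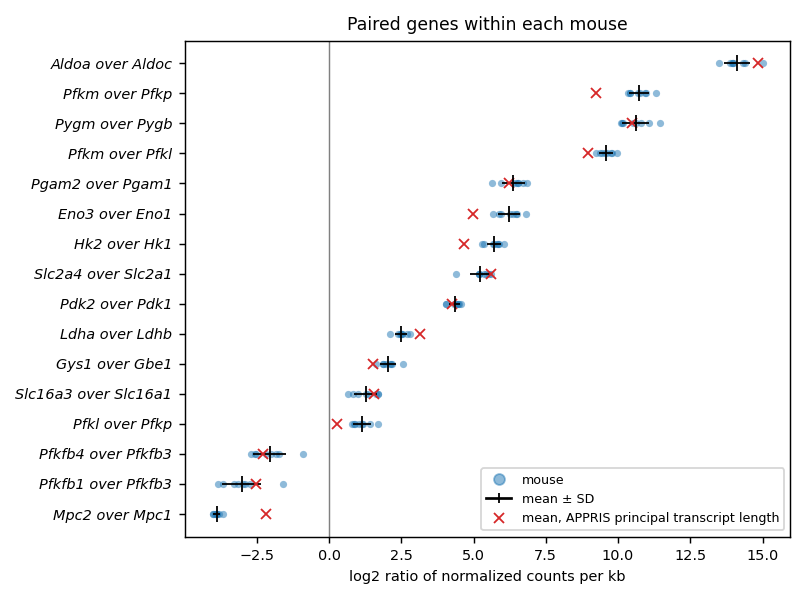
Log2 ratio of normalized counts per kb for 16 pairs of genes in 8 mice; blue points are mice, black ticks and bars the mean ± SD, and red crosses the mean with the APPRIS principal transcript length. No point crosses 0, and the points of mouse 4 for Slc2a4 over Slc2a1 (4.40) and of mouse 7 for the Pfkfb3 pairs lie apart from the rest.

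Forms known from liver, testis or leukocytes were scarcely detected. Of the other genes of these families, Pklr (liver and red-cell pyruvate kinase) and Ldhc (testis lactate dehydrogenase) were at 0 counts in all 8 mice. Gys2 and Fbp1, the liver forms of glycogen synthase and fructose bisphosphatase, did not exceed 2.21 and 1.66 normalized counts. Hk3 (2.21 to 15.8), Eno2 (9.78 to 24.3) and Pygl (27.4 to 78.6) were low. Slc2a3, the gene of GLUT3, had 232 to 563.

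Across the 8 mice, the genes did not vary as 1 block. The median Pearson r over their 820 pairs, on log2(normalized count + 1), was 0.13, against -0.002 over all pairs of genes tested. Pairs with r of at least 0.7 were 130 of 820 (15.9%), where the background over all pairs was 4.85%, and pairs with r of at most -0.7 were 26 (3.17%), against 4.50%. These correlations rest on 8 mice and are given as a description, since all genes of a mouse share its library and size factor. The 5 glycogen breakdown genes had a median r of 0.84 over their 10 pairs, led by Pygm with Phkb (0.96) and followed by Phka1 with Phkb and with Pygm (both 0.90), with Pygb outside the group. The 12 genes from aldolase to lactate dehydrogenase had a median of 0.56 over 66 pairs, and they had a median of 0.56 with the glycogen breakdown genes as well. Ldha, for example, had r of 0.95 with Gapdh, 0.94 with Eno3, 0.94 with Pygm and 0.92 with Phka1.

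A second set ran with glycogen synthesis. The 5 synthesis genes had a median r of 0.69 over their 10 pairs, none below 0.27, and medians of 0.58 with the 4 transporter genes and of 0.59 with Hk1, Hk2 and Gpi1. This group holds Pgm2. With Pgm1 in its place, an alternative added after seeing the data, the median within the group was 0.52 and the lowest r was -0.96 (Pgm1 with Ugp2), while Pgm1 had r of 0.91 with Pygm, and the medians with the transporter and with the hexokinase and isomerase genes were 0.49 and 0.59. Gys1 followed Slc2a4 (0.86), Pdk2 (0.84), Gpi1 (0.82) and Gbe1 (0.78). Between the synthesis and the breakdown genes the median r was -0.29 with either gene. Ugp2 ran against the most genes, 8 of them at r of -0.7 or below, among them Pygm (-0.86), Pfkfb1 (-0.86) and Phkb (-0.83), and Slc2a1 ran against 6, Pygm (-0.85) and Pgam2 (-0.85) among them. Ugp2 and Slc2a1 had r of 0.79 with each other. Pfkfb3, in contrast, reached 0.7 in size with Pgm2 alone (-0.72). The gene with the most partners was Pdha1, the pyruvate dehydrogenase subunit, with 16 genes of the list at r of at least 0.7, although its CV was only 8.50%.

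The highest and lowest values were spread unevenly over the mice. Mouse 1 was highest in 12 of the 41 genes and mouse 5 in 11, where over all genes tested these mice were highest in 11.5% and 15.8%. Mouse 4 was lowest in 11 genes and mice 3 and 8 in 8 each, against 10.8%, 9.27% and 20.6% of all genes, and mouse 8 was also highest in 7, against 17.7% of all genes. Mouse 5 was lowest in 0 of the 41, while it was lowest in 14.2% of all genes. Mouse 1 led in Ldha, Eno3, Tpi1, Gapdh, Pygm, Phkb and Fbp2, and mouse 5 led in Slc2a4, Slc16a3, Hk2, Gpi1, Gys1, Gbe1, Gyg and Ugp2.

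**Figure D3:**
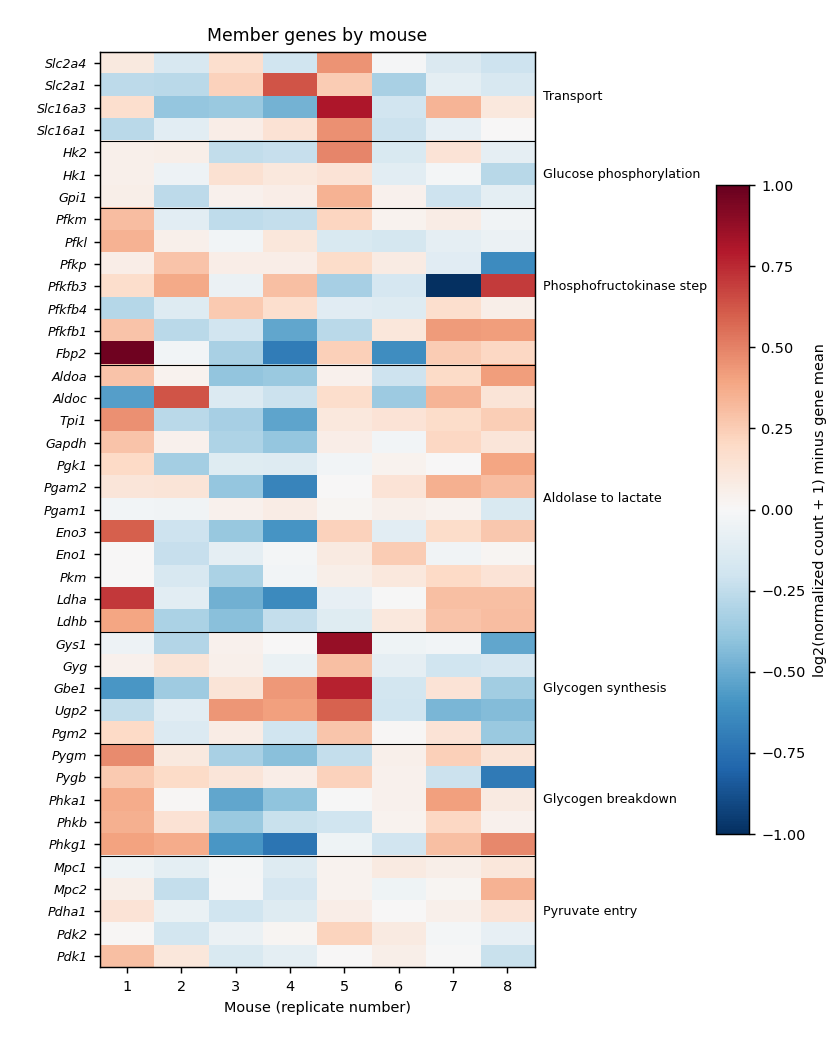
Level of each gene in each mouse as log2(normalized count + 1) minus the mean of the gene over 8 mice, from blue (lower) to red (higher), with rows grouped by role; values beyond -1 and 1 take the end colours. Mice 3 and 4 are blue in Aldoa, Tpi1, Gapdh, Pgam2, Eno3, Ldha, Pygm, Phka1, Phkb and Phkg1, and mouse 5 is red in the transport and glycogen synthesis rows.

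The glycolytic fibre marker Myh4 is not in the list, and its level was set against each gene. Myh4, the myosin heavy chain gene of type IIB fibres, had 2063673, 1861368, 839797, 956622, 1306364, 1569954, 1672157 and 1421268 normalized counts in mice 1 to 8. Mice 3 and 4 were lowest, and mouse 1 was highest. Of the 7 other skeletal muscle markers, Ckm, Mylpf, Tnnt3, Myh1 and Myh2 were also lowest in mice 3 and 4, with Ckm, the muscle creatine kinase gene, at 159626 and 158479.5 against 184197 to 292044 in the others. The remaining 2 were lowest in mouse 3 but not next lowest in mouse 4 (171142 for Acta1 and 4730.0 for Myh7), since Acta1 was lower in mouse 6 (159364) and Myh7 in mouse 2 (4373). The 7 markers without Myh4 summed to 852046 and 915403 in mice 3 and 4 and to 1091078 to 1373586 in the others, and the part of this in the slopes was not tested. Of the RNA of the 4 adult heavy chain genes (Myh1, Myh2, Myh4 and Myh7), Myh4 made up 77.0% in mouse 3 and 77.2% in mouse 4, and 79.0% to 84.4% in the others. For each gene, limma fitted the slope of log2(normalized count + 1) on the log2 Myh4 level, with p-values adjusted over all 16512 genes tested, and since each mouse is 1 sample, p measures the spread between these mice. Over all genes, 0.921% passed at an adjusted p of 0.05, with 0.472% rising and 0.448% falling. Of the 41 genes, 1 rose with Myh4 and 0 fell.

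That gene was Phkg1, the catalytic subunit gene of phosphorylase kinase. Its slope was 0.89 ± 0.18 (SE) log2 units per log2 unit of Myh4 (limma, adjusted p = 0.048). The call was at the edge of the threshold: edgeR's quasi-likelihood test on the recovered reads gave an adjusted p of 0.060, limma gave 0.061 with library totals and 0.054 on the share of Myh4 among the heavy chains (chosen after seeing the data), and the call was lost in limma without mouse 1 (0.11), 2 (0.11), 3 (0.19), 4 (0.28), 5 (0.053) or 7 (0.085). Over the alternatives run, the adjusted p ranged from 0.000889 (DESeq2) to 0.28 (limma without mouse 4), and the slope was positive in each. Over single genes, the exact permutation of the 8 mice gave Pearson's r = 0.86 (exact p = 0.008, adjusted p = 0.23 over all genes) and Spearman's rho = 0.69 (exact p = 0.069, adjusted p = 0.39). Over the 6 mice left without mice 3 and 4, r was 0.45. Those 2 mice are the farthest from the median Myh4 level, so the range of Myh4 was narrower there. The slope itself was 0.96 without mouse 3 and 0.75 without mouse 4, and these were the highest and lowest of the fits that left out 1 mouse.

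Next in order of p were Phka1, Phkb, Ldha and Pygm, all short of the threshold. Phka1 had a slope of 0.65 ± 0.14 (limma, adjusted p = 0.054), Phkb 0.51 ± 0.11 (adjusted p = 0.056), Ldha 0.80 ± 0.19 (adjusted p = 0.069) and Pygm 0.61 ± 0.16 (adjusted p = 0.099). These calls varied with the setting: DESeq2 called all 4 of them with Phkg1, Gapdh, Pgam2 and Slc2a1, Phka1 and Ldha passed with Phkg1 and Pgam2 once GC and length trends were removed, Phka1, Phkb and Ldha passed with Phkg1 without mouse 8, and Phkb alone passed without mouse 5. Phkb followed Myh4 most evenly: Pearson's r was 0.95 (exact permutation p = 0.00015, adjusted p = 0.12), Spearman's rho was 0.95 (exact p = 0.0011, adjusted p = 0.18), and r was still 0.92 without mice 3 and 4. For Pygm the values were r = 0.90 (exact permutation p = 0.0019, adjusted p = 0.18) and rho = 0.86 (exact p = 0.011, adjusted p = 0.23), with r = 0.83 without the same mice. Over the 16512 genes, 0 passed when these exact p-values were adjusted, by r or by rho.

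On the other side, Slc2a1 had a slope of -0.62 ± 0.17 (limma, adjusted p = 0.12), Ugp2 -0.67 ± 0.22 (adjusted p = 0.18) and Gbe1 -0.62 ± 0.25 (adjusted p = 0.26). Before adjustment, 13 of the 41 genes had p under 0.05 with a positive slope (background 6.98% of all genes). With a negative slope there were 4, a share close to the background of 8.37%. With library totals these counts were 5 and 8, and with Myh4 as its share of the heavy chains they were 7 and 5. Of all genes, in either direction, 5045 had p under 0.05 with library totals and 2589 with the share. With the deposited size factors 2534 did (15.3%). The share of the 41 genes was thus close to that of all genes with library totals. Leaving out a mouse gave 7 (without mouse 1 or mouse 4) to 15 positive and 2 to 5 negative. Of all genes, in either direction, it gave 1542 (without mouse 4) to 2985 (without mouse 8). With the deposited size factors, the 13 were Phkg1, Phka1, Phkb, Ldha, Pygm, Pgam2, Gapdh, Eno3, Tpi1, Fbp2, Ldhb, Aldoa and Pdk1, and the 4 were Slc2a1, Ugp2, Pfkfb4 and Gbe1. Without mice 3 and 4, r with Myh4 was 0.06 for Pgam2, 0.07 for Tpi1, 0.11 for Aldoa, 0.14 for Eno3 and 0.16 for Ldhb. It was 0.40 for Fbp2, 0.50 for Gapdh, 0.52 for Ldha, 0.54 for Phka1 and 0.78 for Pdk1. Of the 4, it was -0.69 for Slc2a1, -0.45 for Ugp2, -0.43 for Pfkfb4 and -0.73 for Gbe1. The range of Myh4 was narrower without these mice. The median slope of the 41 genes was 0.10 and that of all genes -0.0089. Slopes of less than 0.1 in size were those of Pygb (0.0087), Pfkp (0.01), Mpc2 (0.03), Pfkfb3 (-0.07), Pgm2 (0.08), Pfkl (0.09), Slc2a4 (-0.08), Pgam1 (-0.06), Eno1 (0.01), Gyg (-0.02), Mpc1 (0.04) and Pdk2 (-0.03).

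The slopes moved with the scaling. With library totals in place of the deposited size factors the median slope of all genes moved from -0.0089 to -0.35, 13 of the 41 slopes changed sign, none of them among the genes named here as positive or negative at p under 0.05, and the 5 genes that passed were Gbe1, Pfkfb4, Slc16a1, Slc2a1 and Ugp2, all with negative slopes. The size factor was largest in mouse 3 (1.20), the mouse lowest in Myh4. Pearson's r of the Myh4 level was -0.57 with the size factor. With the mean z-score of the 7 other skeletal muscle markers it was 0.89. Blood markers were high in mice 3 and 5 but not in mouse 4 (9670). The part of these differences in the slopes was not tested.

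**Figure D4:**
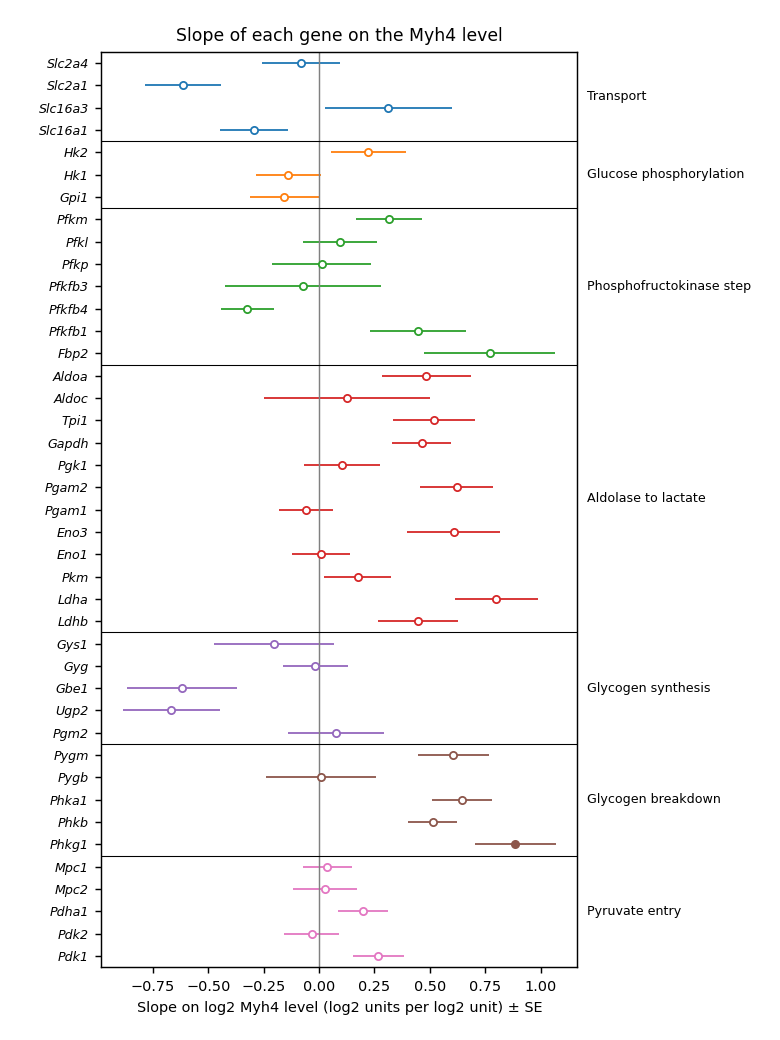
Slope of each gene on the log2 Myh4 level over 8 mice from limma, in log2 units per log2 unit, with bars of ± SE; the filled point (Phkg1) passed an adjusted p of 0.05 and open points did not. Glycogen breakdown and Ldha lie at 0.51 to 0.89 apart from Pygb, and Slc2a1, Gbe1 and Ugp2 lie at -0.62 to -0.67.

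**Figure D5:**
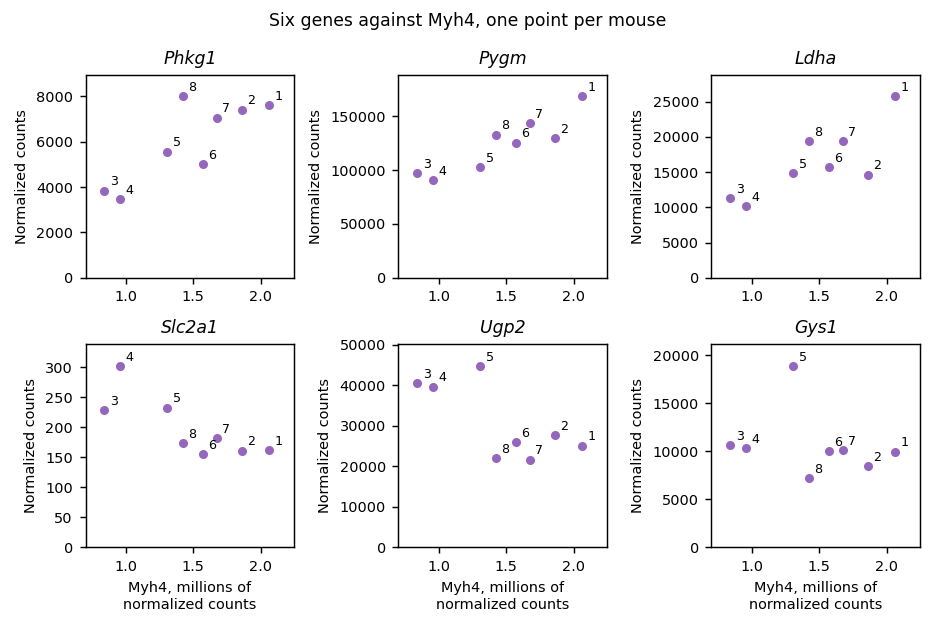
Normalized counts of 6 genes against those of Myh4, 1 numbered point per mouse. Phkg1, Pygm and Ldha are lowest in mice 3 and 4, Slc2a1 and Ugp2 are high in mice 3, 4 and 5, and Gys1 in mouse 5 (18895) stands apart from the other mice.

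A slow-fibre score, the mean z-score of 9 genes of type I fibres (Myh7, Myl2, Myl3, Tnnt1, Tnni1, Tnnc1, Tpm3, Atp2a2 and Myoz2), ranged from -1.01 in mouse 3 to 1.33 in mouse 1. By limma, 0 of 16504 genes passed at an adjusted p of 0.05 (0%), none of the 41 among them, and 510 genes (3.09%) had an unadjusted p under 0.05. Of the 41, 9 had an unadjusted p under 0.05, all with a positive slope, where 1.71% of all genes had such a positive slope and 1.38% a negative one. With library totals 4 were positive and 207 of all genes had an unadjusted p under 0.05, and leaving out a mouse gave 6 (without mouse 4) to 13 positive, 0 to 2 negative (2 without mouse 5), and 231 (without mouse 4) to 1017 (without mouse 2) of all genes. The 3 with the smallest p were Eno3 (slope 0.39 ± 0.09 SE per unit of score), Tpi1 (0.34 ± 0.08) and Ldha (0.39 ± 0.11), each with a limma adjusted p of 1. DESeq2 called 4 genes, Eno3 among them (adjusted p = 0.039), and edgeR called 0. Mouse 1 was highest in the slow-fibre score as well as in Myh4, and the 2 lowest values of that score were those of mice 3 and 2. Pearson's r between the slow-fibre score and the Myh4 level was 0.52, so slopes on the 2 are not separate results.

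A further list of 51 genes of the same pathways, of which 43 were abundant enough to be tested, was fitted in the same way. On the Myh4 level 1 of the 43 rose and 0 fell (background 0.921%), and 11 had an unadjusted p under 0.05 with a positive slope and 1 with a negative slope (background 6.98% and 8.37%). The gene that rose was Gpd1, the cytosolic glycerol 3-phosphate dehydrogenase that moves reducing equivalents from glycolysis to the mitochondrion. Gpd1 had 7389, 5477, 2708, 2431, 2698, 5355, 6285 and 5965 normalized counts and a slope of 1.25 ± 0.22 (limma, adjusted p = 0.028). The call was lost without mouse 1 (limma, adjusted p = 0.10), 2 (0.063), 3 (0.093), 4 (0.18), 6 (0.0503) or 7 (0.054) and held in the other alternatives, where the adjusted p ranged from 2.24e-05 (DESeq2) to 0.033 (edgeR). The slope was 1.15 to 1.49 in the fits that left out 1 mouse. Mice 3, 4 and 5 lay below the other 5 without overlap, the same mice that were highest in Ugp2. Pgm1, which links glycogen to glucose 6-phosphate, had 19054, 18817, 10040.4, 9848, 10012, 17848, 20809 and 18589 with mice 3, 4 and 5 lowest again, and a slope of 0.92 ± 0.19 (limma, adjusted p = 0.052, and 0.000501 with DESeq2 to 0.27 without mouse 4 over the alternatives). On the slow-fibre score 0 of the 43 passed in limma, with 2 at an unadjusted p under 0.05 (background 3.09%).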

How the data were processed

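Poly-adenylated RNA of 8 hindlimb muscles, each from a different immobilized mouse given K14Q MOTS-c, was sequenced on an Illumina NextSeq. Per the labels and the methods, the authors used FastQC and fastp, mapped reads with STAR to GRCm38.p6, counted them with summarizeOverlaps and normalized with DESeq2. The annotation release, use of strand and handling of reads that fit several genes are not given in the sources used here. The deposited signal, although its table is named for counts, held reads already divided by a size factor of their library: 100% of values were whole multiples of the library's step, within 0.01 of a read. The design had assumed counts, so limma on log2(normalized count + 1) replaced a count model as the main test, and reads were recovered for edgeR and DESeq2.

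GENCODE release M21 held 55227 of the 55487 identifiers and gave symbols, merged exonic lengths and GC content. Of the 2 identifiers named Aldoa, ENSMUSG00000030695 was used, since the other had a mean of 5.47 normalized counts. Genes with a mean of 10 normalized counts were tested. Slopes on the slow-fibre score and the Myh4 level were fitted by limma with a mean-variance trend over all tested genes, two-sided, with Benjamini-Hochberg adjustment at 0.05, leaving out the genes of the score. For single genes all 40320 orders of the 8 mice gave exact p-values, and paired genes were tested over 256 sign flips. The fits were tested on simulated data with known slopes. Genes were named by role, all listed genes being allowed, otherwise the 3 smallest p-values per score, those past the threshold, and named relatives of the listed genes. Another planned score and the values of some genes are not reported here. The genes and lists were chosen with earlier results of these data known. The alternatives were TMM factors, library totals, a pseudocount of 5, no filter, 10 counts in every library, edgeR, DESeq2, removal of GC and length trends, other transcript lengths and leaving out each mouse. R 4.3.3, limma 3.58.1, edgeR 4.0.16, DESeq2 1.42.0, Python 3.11.15, numpy 2.4.6, pandas 2.3.3, scipy 1.17.1 and matplotlib 3.10.9 were used. Totals of 23985356 to 33012497 counts per library make counting error alone large for the scarce genes, with an expected CV of 27.7% for Aldoc, 13.1% for Pgm2 and 6.36% for Pgam1. Replicates are single libraries without molecular identifiers.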

Additional observations from a re-analysis of the deposited data

Results flagged for a closer look

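In 8 samples a value was singled out when its gap to the nearest other, divided by the whole range, exceeded Dixon's 95% critical value for 8 samples. Of 57 values tested (41 levels and 16 ratios) 5 were singled out, where chance gives about 2.85. Of the 41 levels 4 were, and 6.08% of all genes tested were. Chance alone singles out about 1 group in 20. In mouse 5, Gys1 stood at 18895 normalized counts while the other mice lay between 7214 and 10649 (gap 0.706 of the range, and 0.685, 0.536 and 0.721 with TMM factors, library totals and GC and length trends removed). In the same mouse Hk2 stood at 10061, above 6046 to 7886 in the others, with a gap of 0.542 that fell to 0.493 when GC and length trends were removed and was 0.811 with library totals. In mouse 1, Fbp2 stood at 771, above 241 to 467 (0.573, and 0.571 to 0.595 under the same alternatives). In mouse 8, Mpc2 stood at 2429, above 1623 to 1991 (0.544), but with library totals the widest gap was at mouse 2 and was 0.277. The log2 ratio of Slc2a4 over Slc2a1 per kb was 4.40 in mouse 4 and 5.18 to 5.59 in the others (0.649), mouse 4 being the highest in Slc2a1.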

How the results depend on the processing

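Levels of the 41 genes moved by less than the spread between mice in 410 of 410 alternatives, and the log2 ratios kept direction and call in 176 of 176. Alternative slopes were tallied for Eno3, Tpi1 and Ldha on the slow-fibre score, and for Phkg1, Phka1, Phkb, Gpd1 and Pgm1 on the Myh4 level. Of these, 101 kept direction and call, 17 came to pass the threshold, 15 lost it and 0 turned. Among the 41 genes, slopes on the Myh4 level did turn: 13 with library totals, 3 with GC and length trends removed, 1 with TMM factors. Leaving out a mouse turned 0 (mouse 8) to 5 (mouse 4). For the Myh4 level, 1 of the 41 genes and 152 of all genes passed, against 5 and 1394 with library totals, 8 and 670 with DESeq2, 4 and 236 with GC and length trends removed, 0 and 145 with edgeR, and 0 and 201 with Myh4 taken as its share of 4 adult heavy chains, which was chosen after seeing the data. With library totals 70 genes rose and 1324 fell, in place of 78 and 74, and the median level of all genes shifted by -0.15 to 0.19 (log2) per library. Leaving out each mouse gave 0 to 4 of the 41 genes and 1 (without mouse 4) to 326 (without mouse 8) of all genes. For the slow-fibre score all genes gave 1 without the filter and 4 with DESeq2, of which 1 was among the 41. The median pairwise r of 0.13 became 0.087 with library totals, 0.083 with Spearman's rho, and 0.060 to 0.19 without each mouse, the lowest without mouse 5. The edgeR spread of 17.0% became 17.8% with library totals and 16.9% to 18.1% without each mouse. The share of counts was 1.42% without Gapdh, Aldoa, Pkm and Eno3. The causes were not tested. No paired analysis was possible because the 8 mice form a single group with no partner samples. Depth limits Pgam1, Aldoc, Pgm2 and Hk1, where the expected counting variance was 54.9% or more of that observed, and to a lesser degree Pfkl, Pfkp and Pygb (23.0% to 44.1%), and the pairs that hold them.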
